A study of Mus musculus with 4 samples.

Results

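The cells described here are keratin-rich epithelial cells of the ocular surface that were recovered with the retina and choroid of mice. A cell was a member if it held at least 1 UMI (unique molecular identifier, a count of captured RNA molecules) of at least 3 of 5 marker genes, Krt5, Krt14, Krt12, Krt15 and Aldh3a1, and at least 10 UMIs over the 4 keratins together. That rule found 956 members among 36701 cells. The levels of these 5 genes chose the members and are therefore given as description only. This holds for their part in the gene lists used below. Krt12 and Aldh3a1 stand in the corneal differentiation list, Aldh3a1 also in the oxidative defence list, and Krt5, Krt14 and Krt15 in the limbal and basal list. Outside young CNV, few cells lay near the limit of the rule. In 2 libraries of young mice (control, then CNV) and 2 of aged mice in the same order, 5, 2, 0 and 2 members had a keratin sum of 10 to 19 UMIs, and 2, 51, 0 and 5 cells outside the rule had a sum of 5 to 9. The 51 cells outside the rule in young CNV had a median of 50680 UMIs.

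All mice were wild type (WT). Choroidal neovascularisation (CNV), the growth of new vessels from the choroid, was induced by laser photocoagulation at 532 nm and 200 mW for 0.150 s with a spot of 100 µm, and tissue was taken 3 days later. The young groups were aged 6 to 8 weeks and the aged groups more than 18 months, and each age had 1 library of mice without lesions (control) and 1 of lasered mice (CNV). Retina and choroid with sclera were dissociated apart with papain, rods were depleted from the retinal cells with an antibody to CD73, and the suspensions were joined before droplet capture, so the suspension a cell came from is not recorded. The labels give no number of mice per library, and with 1 library per group no difference could be tested between animals. Values for the 4 libraries are given with young before aged and, within each age, control before CNV, and each interval is an exact 95% interval that covers counting error only.

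The surface of the eye is covered by corneal epithelium in the centre and conjunctival epithelium around it, with the limbus between them. Basal cells of these epithelia make keratins 5, 14 and 15 and sit on a basement membrane through hemidesmosomes, while the cells above them make site-specific keratins, keratin 12 in the cornea and keratins 4, 13 and 19 in the conjunctiva. Limbal basal cells renew the cornea, and the surface cells carry membrane mucins and secrete antimicrobial proteins into the tear film. Wounding of this epithelium is known to raise stress keratins, EGF receptor ligands and interleukins.

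The young control library held 252 members among 11427 cells, the young CNV library 261 among 10867, the aged control library 29 among 6676 and the aged CNV library 414 among 7731. Members were deep cells. Their median depths were 36400.5, 31593, 21202 and 20599 UMIs, against 2593, 7223, 6427.5 and 6875 over all cells of each library, and they supplied 16.0%, 8.76%, 1.40% and 14.5% of the library's UMIs. Levels below are CPM, the UMIs of a gene per 1000000 UMIs summed over the members of a library, from sums of 11031731, 9804775, 710642 and 10038808 UMIs. All aged control levels rest on 29 cells, where a single UMI is worth 1.41 CPM and the limit that a count of 0 allows, 3 counts, is 4.22 CPM. Across libraries 124 barcodes occurred more than once, 6 members had such a barcode, and 0 barcodes were members in more than 1 library. UMIs of other cell types were present in part of the members. A barcode with more than 0.2% of its UMIs from the marker list of another cell type is called mixed below, which applied to 45, 18, 1 and 61 members, 125 in all, most often through fibroblast genes in 44 and rod genes in 33 members.

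Sequences just upstream of 3 genes that the results turn on are shown with the short CACCC core of the KLF family, whose member Klf5 was measured in all 4 libraries at 490, 455, 642 and 537 CPM. They are Krt12, the corneal keratin that divided young from aged members, Krt5, the basal keratin shared by all libraries, and Gpha2, a glycoprotein hormone subunit that is a marker of limbal basal cells. The windows come from the RefSeq promoter table on GRCm38.p6, written 5′ to 3′ on the strand of the gene and ending at the base before the transcript start, at chr11:99422260-99422509 (minus strand) for Krt12, chr15:101712906-101713155 (minus) for Krt5 and chr19:6226151-6226379 (plus) for Gpha2, where 21 bases that GENCODE places inside the gene were left out. Capitals mark CACCC or its reverse complement GGGTG.
Krt12: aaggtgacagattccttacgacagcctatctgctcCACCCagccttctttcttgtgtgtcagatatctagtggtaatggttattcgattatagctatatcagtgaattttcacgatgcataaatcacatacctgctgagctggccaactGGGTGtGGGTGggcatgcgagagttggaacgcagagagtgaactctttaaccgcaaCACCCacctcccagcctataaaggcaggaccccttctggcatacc
Krt5: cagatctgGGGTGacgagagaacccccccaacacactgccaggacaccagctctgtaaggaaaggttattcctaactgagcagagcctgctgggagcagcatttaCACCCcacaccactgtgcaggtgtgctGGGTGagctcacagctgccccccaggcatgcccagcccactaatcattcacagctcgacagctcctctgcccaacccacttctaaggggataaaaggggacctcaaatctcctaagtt
Gpha2: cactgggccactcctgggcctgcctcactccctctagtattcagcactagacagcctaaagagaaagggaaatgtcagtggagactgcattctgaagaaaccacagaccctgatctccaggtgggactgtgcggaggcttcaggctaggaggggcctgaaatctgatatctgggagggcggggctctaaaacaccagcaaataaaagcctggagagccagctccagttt
The Krt12 window held 4 matches, the Krt5 window 3 and the Gpha2 window 0. A match was found in 52.01% of 32851 windows of 250 bases in the table, and 4 or more in 2.14%. The cut of 4 was taken from the Krt12 window itself, so the 2.14% is a description only. TATAAA or its reverse complement TTTATA occurred in 12.37% of the windows, with 1 match in Krt12 and 0 in the others. These matches describe letters and say nothing of binding. The 3 genes lie in mm10 (GENCODE M21) at chr11:99415666-99422259 for Krt12 (ENSMUSG00000020912.4, 8 exons), chr15:101707070-101712898 for Krt5 (ENSMUSG00000061527.7, 9 exons) and chr19:6226380-6227768 for Gpha2 (ENSMUSG00000024784.13, 4 exons).

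The members carried the programme of ocular surface epithelium in every library. Pax6, the transcription factor that specifies corneal and conjunctival epithelium, stood at 238, 261, 369 and 283 CPM, whereas other cells, which include retinal neurons, had 31.6, 14.3, 39.3 and 35.1 CPM. Trp63, the factor of stratified basal cells, was at 176, 193, 594 and 274 CPM in members and at most 2.27 CPM in other cells. Gsto1, a glutathione transferase, reached 8653, 9385, 11219 and 9077 CPM, and its 4 levels lay within a narrow band. The hemidesmosome genes Itga6 (574, 594, 692 and 924 CPM) and Col17a1 (351, 444, 360 and 311 CPM) were present throughout. Muc4, a membrane mucin, was at 397, 412, 487 and 378 CPM, while Muc16, another surface mucin, had 0, 6, 0 and 0 UMIs.

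Markers of neighbouring epithelia varied. Genes of the epidermis and hair list that stratified epithelia share were high, with Krt17 at 992, 664, 402 and 457 CPM and Lgals7, a galectin, at 1078, 1069, 315 and 408 CPM. The lacrimal and goblet gland list of 6 genes, which includes Aqp5 and Ltf, summed to 825, 984, 94.3 and 313 CPM, against 11.8, 6.23, 14.9 and 13.1 CPM in other cells, with Lcn11 at 0 in all 4 libraries. Aqp5 alone was at 665, 829, 11.3 and 30.2 CPM, so the young sums were mostly Aqp5. In young members Aqp5 was higher in those with 5 or more Krt12 UMIs, as given below. Krt10, a keratin of the epidermis, was at 33.1, 29.3, 19.7 and 10.3 CPM, a level also seen in other cells (38.4, 26.8, 19.8 and 13.2 CPM). The lens list of 11 genes summed to 9.06, 7.45, 9.85 and 11.4 CPM in members, with 3, 2, 9 and 7 of its genes at 0, and the meibomian and sebaceous list of 5 genes to 16.9, 23.4, 15.5 and 19.9 CPM. Leukocyte genes were uneven, with a summed level over 7 genes of 39.4, 790, 42.2 and 224 CPM, which came to 39.7, 200, 41.3 and 82.3 CPM without mixed barcodes. The leukocyte list is among those that define mixed barcodes, so this change is partly set by the definition. The fibroblast list of 9 genes summed to 851, 584, 28.1 and 566 CPM and the rod list of 10 genes to 721, 192, 214 and 140 CPM in members. Both lists were higher in other cells of the same library, at 15417, 24528, 4150 and 5766 CPM for fibroblasts and 9698, 3492, 3739 and 1713 CPM for rods. Ribosomal protein genes took 19.8%, 20.4%, 18.6% and 17.3% of member UMIs, and mitochondrial genes 2.35%, 2.50%, 2.36% and 2.11%.

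Beyond the genes of the rule, the largest ratios of member to non-member levels over all libraries included Rbp2, an intracellular retinol-binding protein, at 959, 723, 605 and 499 CPM in members and at most 1.46 CPM in other cells. Fermt1, which encodes kindlin-1 and links integrins to the cytoskeleton of basal keratinocytes, was steady at 82.8, 85.5, 98.5 and 91.6 CPM. Trim29 was at 502, 505, 495 and 506 CPM, the most even level of the 20 genes with the largest ratios. Dsg3, a desmosomal cadherin, was at 399, 320, 208 and 179 CPM, and Aqp3, a glycerol and water channel, at 1252, 1010, 692 and 426 CPM. For both, the 2 young libraries lay above the 2 aged ones. The serpin Serpinb3a was at 337, 221, 45.0 and 77.6 CPM. These genes were picked by their contrast with the other cells, so the ratios are a description.

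Keratins 4, 13 and 19 of the conjunctiva were strong in every library and higher in young mice. Krt13 was at 2570, 2282, 531 and 479 CPM, Krt4 at 2149, 1697, 849 and 783 CPM, and Krt19 at 1782, 1080, 502 and 650 CPM. For each of the 3 genes both young levels lay above both aged levels. Spread between cells was wide. Krt13 had a median of 5.5, 2, 0 and 0 UMIs per member and a maximum of 1852, 1542, 161 and 276. The stress keratins Krt6a (2525, 2085, 758 and 849 CPM) and Krt6b are near-identical copies, as are parts of Krt14, Krt16 and Krt17, so how reads were divided among them is uncertain.

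Each member was classed by which of 13 keratins gave it the most UMIs, a count that is not corrected for transcript length. Krt15 led in 170, 158, 17 and 283 members, or 67.5%, 60.5%, 58.6% and 68.4%. Krt14 led in 50, 62, 12 and 127, or 19.8%, 23.8%, 41.4% and 30.7%, and the interval of the aged control share ran from 23.5% to 61.1%. Krt12 led in 27 and 36 young members, 10.7% (interval 7.18% to 15.2%) and 13.8% (9.85% to 18.6%), and in 0 aged members. The remaining members, 5 in each young library and 0 and 4 in the aged ones, were led by Krt13, Krt5, Krt17 or Krt6a.

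**Figure D1:**
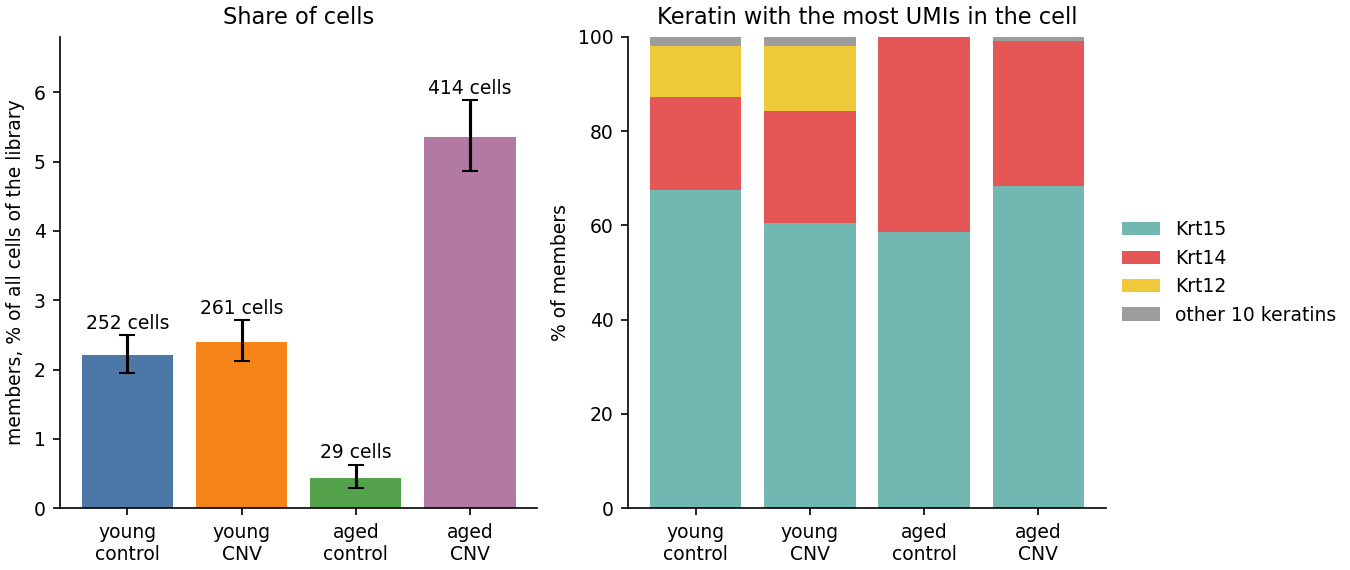
Left, members as a percentage of all cells of each library, with exact 95% intervals as error bars and the number of members above each bar. Right, the keratin with the most UMIs in each member, as a percentage of members. The aged CNV share stands highest at 5.36% and the aged control share lowest at 0.434%, and the Krt12 segment is present in both young bars and absent from both aged bars.

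Krt14-led and Krt15-led members were compared within each of the 3 libraries with 20 or more cells of both kinds, mixed barcodes left out (40 and 139 cells in young control, 59 and 148 in young CNV, 108 and 241 in aged CNV). Genes were ranked by the smallest of the 3 ratios, so that a gene had to differ the same way in all 3 libraries. These cells were classed by their own UMIs, and the differences are a description. Gpha2, the limbal marker, came first among the genes higher in Krt14-led members. It was at 1668 against 524 CPM in young control, 2006 against 599 CPM in young CNV and 1012 against 310 CPM in aged CNV, log2 ratios of 1.67, 1.74 and 1.70. The 3 ratios were nearly equal although the aged levels were lower. Sema5a, a semaphorin guidance cue, was at 96.5 against 19.7 CPM, 87.0 against 33.6 CPM and 119 against 25.4 CPM. Nrg1, a ligand of the ERBB receptors, was at 361 against 143, 168 against 60.7 and 286 against 58.2 CPM. Gli3, a transcription factor of the Hedgehog pathway, Trpv4, a calcium channel, and the histone genes Hist1h2ae and Hist1h2an were also among the first 15.

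Differences in the other direction were larger. Muc4 stood at 9.51 CPM in Krt14-led against 492 CPM in Krt15-led members of young control, at 6.78 against 424 CPM in young CNV and at 1.02 against 501 CPM in aged CNV. Rbp2 was at 38.0 against 1247, 54.8 against 896 and 5.11 against 681 CPM. St6galnac1, a sialyltransferase that acts on mucin-type glycans, was at 3.66 against 191, 3.39 against 150 and 6.65 against 349 CPM. Muc20, another membrane mucin, was at 2.93 against 99.8, 0 against 67.9 and 2.04 against 126 CPM. Ifit1bl1, Akr1b7, Nccrp1 and the retroviral-like protease gene Asprv1 were among the first 15 as well.

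Genes outside that ranking also differed between the classes, in both directions. Over all members of each class, Krt13 was at 169, 288, 0 and 3.64 CPM in Krt14-led and at 3166, 2934, 784 and 637 CPM in Krt15-led members. Krt13 is itself among the 13 keratins used to class the members, so its values are a description only. Itgb4, the hemidesmosomal integrin beta 4, was at 207, 236, 283 and 291 CPM in Krt14-led and at 107, 120, 108 and 117 CPM in Krt15-led members, higher in the former in all 4 libraries. Trp63 was likewise higher in Krt14-led members of every library, at 282, 301, 1161 and 452 CPM against 155, 165, 322 and 211 CPM. Ifitm1, another gene listed as limbal and basal, went the other way in all 4 libraries. It was at 705, 621, 291 and 732 CPM in Krt14-led and at 3431, 3301, 3139 and 3674 CPM in Krt15-led members.

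**Figure D2:**
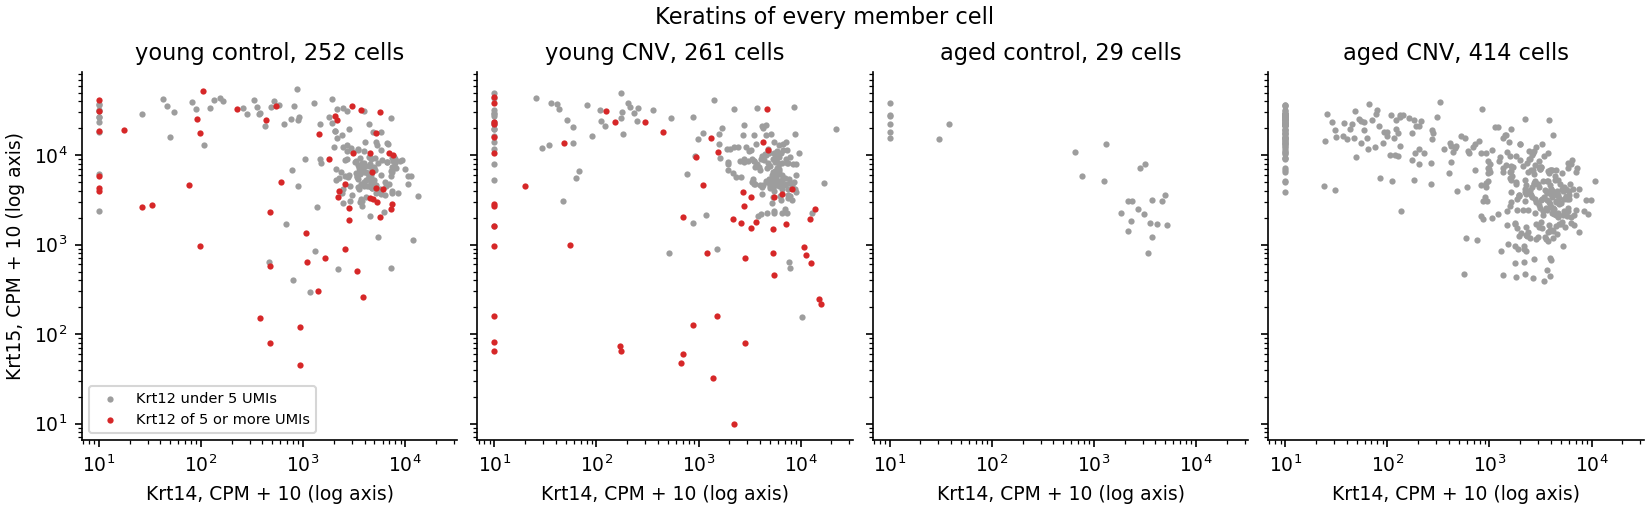
Each point is a member cell, with its Krt14 level on the horizontal axis and its Krt15 level on the vertical axis, both as CPM of the cell plus 10 on log axes. Red points hold 5 or more UMIs of Krt12. The 57 and 60 red cells of the young libraries lie at low as well as high Krt15, and the aged panels hold 0 red cells.

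Krt12, which forms the intermediate filaments of corneal epithelium, separated the ages. Members held 30482, 37405, 0 and 0 UMIs of it, levels of 2763 and 3815 CPM in the young libraries and 0 in the aged ones. At least 5 UMIs were present in 57 of 252 (22.6%, interval 17.6% to 28.3%) and 60 of 261 (23.0%, 18.0% to 28.6%) young members, with medians of 293 and 452.5 Krt12 UMIs in those cells. Of the 443 aged members 0 had a Krt12 UMI, which allows a share of up to 0.677% of cells with one. Free RNA was visible in the young libraries, where 2.61% and 5.34% of rods, cells that do not make the gene, held a Krt12 UMI at median depths of 1500 and 2096 UMIs, and 40.9% and 40.6% of members did. Across all cells other than members the young libraries had 370 and 967 Krt12 UMIs and the aged libraries 0 and 0. Krt15, by contrast, was found in other cells of the aged CNV library at 37.1 CPM, near the 38.0 and 30.0 CPM of the young libraries, but at 1.30 CPM in those of aged control. Kera, a proteoglycan gene of the corneal stroma, also differed between the ages outside the members, at 27.7, 29.6, 3.65 and 2.92 CPM in all other cells and 68.2, 44.9, 15.3 and 10.5 CPM in fibroblasts. The amount of corneal tissue in a suspension is not recorded, and its part in the Krt12 difference and in those of other corneal genes between ages was not tested.

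Young members with at least 5 Krt12 UMIs were set against those with fewer, again without mixed barcodes (47 and 160 cells in young control, 54 and 189 in young CNV), as a description. Lypd2, a GPI-anchored protein of the Ly6 family, was at 3239 against 2.34 CPM in young control and 3576 against 2.63 CPM in young CNV. Slurp1, a secreted Ly6 protein that dampens inflammation of the cornea, was at 847 against 0.732 and 1894 against 1.31 CPM. Mgarp, a mitochondrial protein, was at 2393 against 26.5 and 3039 against 28.8 CPM. The water channel Aqp5 was at 2685 against 104 and 2801 against 170 CPM. Genes lower in the Krt12 cells of both libraries included Wfdc18 (56.7 against 1579 and 5.28 against 763 CPM), Sftpd, a surfactant protein of innate defence (1.72 against 76.6 and 0.44 against 48.8 CPM), and Ptprz1, a receptor phosphatase (1.72 against 88.7 and 1.76 against 107 CPM).

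Over the whole series, 5 genes had at least 200 UMIs in the 513 young members and at most 3 in the 443 aged members. They were Krt12, Lypd2, Slurp1, Dsg1a and Cnfn. Lypd2 had 8101, 8533, 0 and 2 UMIs and Slurp1 2280, 4967, 0 and 1. Dsg1a, a desmosomal cadherin of upper cell layers, had 394, 335, 0 and 0. Cnfn, a protein of the cornified envelope, had 0, 277, 0 and 0 and was found in 1.53% of young CNV members, so it divided 1 young library from the other 3. Over both young and both aged libraries summed, Krt12 was at least 11674-fold and Dsg1a at least 125-fold higher in young members. The potassium channel gene Kcnb2 showed the reverse with 0, 3, 0 and 298 UMIs, so it divided 1 aged library from the other 3. Its level in aged CNV members was 29.7 CPM, and in other cells it stood at 17.1, 16.7, 216 and 431 CPM.

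**Figure D3:**
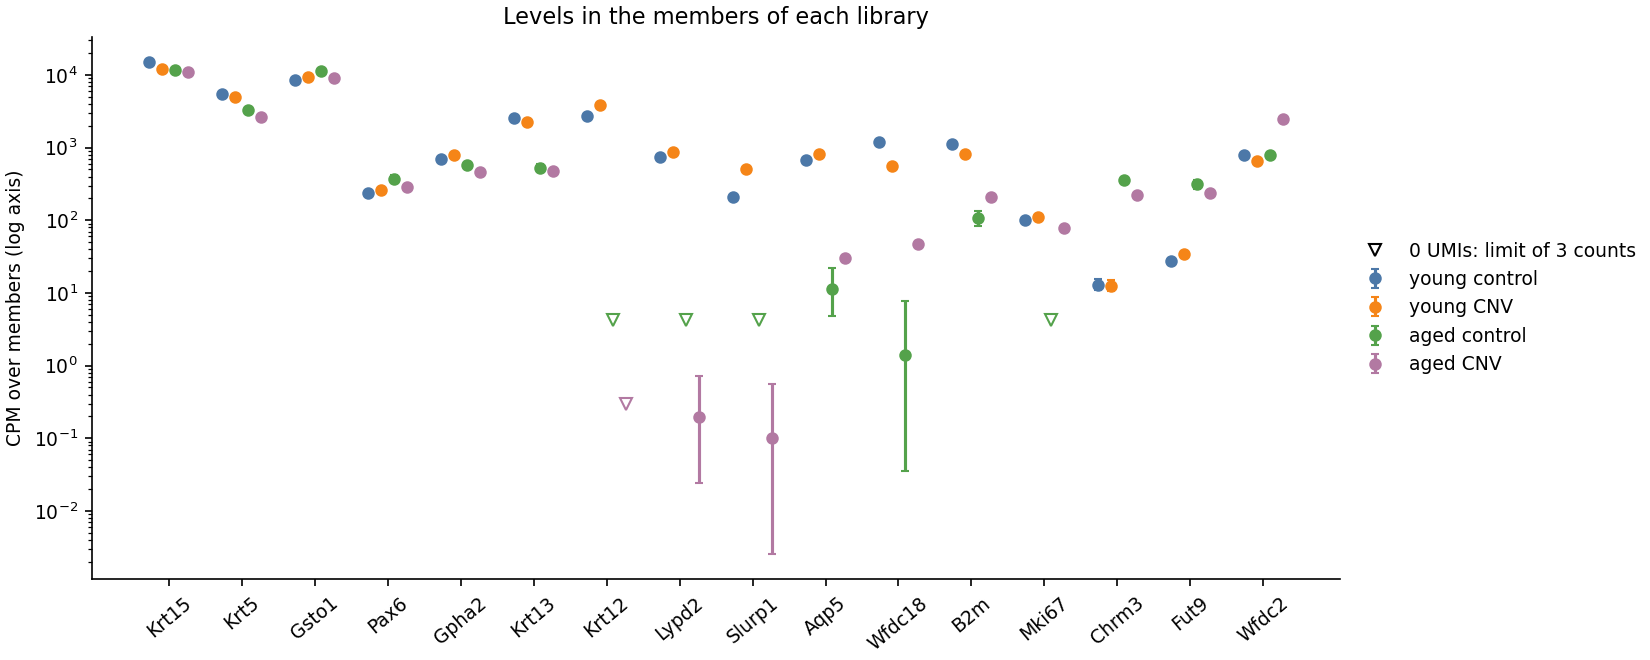
Level of 16 genes over the members of each library, in CPM on a log axis, with exact Poisson 95% intervals. Open triangles mark libraries with 0 UMIs, drawn at the level of 3 counts. Krt15, Krt5, Gsto1, Pax6 and Gpha2 lie close together in the 4 libraries, Krt12, Lypd2, Slurp1 and Aqp5 are high in the young libraries, and Chrm3 and Fut9 are high in the aged ones.

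The share of members among all cells was 2.21% (interval 1.94% to 2.49%) in young control, 2.40% (2.12% to 2.71%) in young CNV, 0.434% (0.291% to 0.623%) in aged control and 5.36% (4.86% to 5.88%) in aged CNV. The young shares differed by a ratio of 1.09 (0.912 to 1.30), an interval that includes 1. It was 1.29 (1.09 to 1.53) at a keratin sum of 5 or more and 1.23 (1.02 to 1.49) without mixed barcodes, intervals that exclude 1. Aged CNV over aged control gave 12.3 (8.46 to 18.6), aged control over young control 0.197 (0.129 to 0.290) and aged CNV over young CNV 2.23 (1.91 to 2.61). Rods, which the depletion step changes, numbered 7331, 3245, 2005 and 1269 by a rule on 5 rod genes. Without them in the denominator the shares were 6.15%, 3.42%, 0.621% and 6.41%, the young ratio was 0.557 (0.466 to 0.664) and the ratio of aged to young control 0.101 (0.0662 to 0.149). The aged laser ratio was 10.3. Without members holding 3 or more UMIs over 11 genes of other cell types, 88, 5, 26 and 309 members were left, and the young ratio came to 0.0597 and that of aged to young CNV to 86.9. How many members a library holds depends on the cells taken into the suspension, so fewer such cells in the eye and fewer in the dissection cannot be told apart.

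Laser injury in young mice was addressed by the young CNV and young control libraries. The 2 libraries differed in few genes. A gene was called when its ratio was at least 2-fold and the counting interval of the ratio excluded 1, which describes these 2 libraries and not the conditions. Of 13691 genes with at least 20 UMIs over both libraries, 340 were called higher in young CNV (2.48%) and 488 lower (3.56%), and the median log2 ratio of all genes was 0.02. In other cells 167 of the 340 and 246 of the 488 also lay at least 2-fold the same way. The structural programme was even. Not 1 of the 23 limbal and basal genes, 23 epithelial transcription factors, 24 desmosome and junction genes, 16 hemidesmosome genes, 26 oxidative defence genes and 27 cell cycle genes was called in either direction.

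The wound and barrier alarm list, which holds stress keratins, alarmins and interleukins, had 2 of 24 genes called higher and 4 lower, with a median log2 ratio of -0.55. Krt16, a stress keratin, was at 211 CPM in young control and 70.4 CPM in young CNV, 2.99-fold lower (2.75 to 3.27), and 1185 of its 2325 UMIs in young control lay in a single cell. Among Krt14-led members alone the direction turned, to a log2 ratio of 1.71. Of 12 genes of the EGF receptor and its ligands 3 were called lower and 0 higher, with a median of -0.001. All 3 were ligands. Areg (amphiregulin) was at 260 and 116 CPM, 2.24-fold lower (2.09 to 2.41), Ereg (epiregulin) at 69.6 and 31.9 CPM, 2.18-fold lower (1.91 to 2.50), and Epgn (epigen) at 7.43 and 3.37 CPM. Areg was higher, not lower, in young CNV among Krt14-led (log2 0.26) and Krt12-led members (1.12). Il33, an alarmin, was at 42.3 and 15.9 CPM, and Hmox1, the haem-degrading enzyme, at 6.89 and 55.8 CPM. The Hmox1 difference lay in mixed barcodes, without which it was at 6.66 and 7.45 CPM and no longer called. Of the 6 calls in the wound list 3 were lost without them.

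Slurp1 was the 1 corneal gene called among 21, at 207 and 507 CPM, 2.45-fold higher (2.33 to 2.58) in young CNV. Cells with Slurp1 made up 15.5% and 19.9% of members. Ifi27l2a, an interferon-induced gene, ran the other way at 631 and 244 CPM, 2.59-fold lower (2.47 to 2.71), while in other cells it was at 290 and 808 CPM. Wfdc18 was at 1177 and 566 CPM. Within the interferon and antigen presentation list 6 of 30 genes were called higher and 1 lower, with a median of 0.09. Without mixed barcodes 2 of the 7 calls were lost, Gbp4 and Igtp. Class II antigen genes remained called, with H2-Aa at 14.2 and 54.9 CPM (15.6 and 42.0 CPM without mixed barcodes) and H2-Ab1 at 25.3 and 65.5 CPM. Other cells were also higher in young CNV, at 267 and 838 CPM for H2-Aa and 249 and 756 CPM for H2-Ab1. Lyz2, a lysozyme of macrophages and neutrophils, was at 21.7 and 579 CPM and came to 22.7 and 120 CPM without mixed barcodes, beside 383 and 2611 CPM in other cells. Lyz2 belongs to the leukocyte list that helps define mixed barcodes, so its change without them is partly set by the definition. The part of leukocyte RNA in these class II and Lyz2 values was not tested. Leaving out mixed barcodes changed the count of called genes to 337 higher and 230 lower.

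Laser injury in aged mice was addressed by the aged CNV and aged control libraries, 414 members against 29. Of 13535 genes, 913 were called higher in aged CNV (6.75%) and 235 lower (1.74%), with a median log2 ratio of 0.05 over all genes. In other cells 187 of the 913 and 17 of the 235 also lay at least 2-fold the same way. Among the lists, cell cycle genes had the most calls, 21, and interferon genes followed with 17. Identity lists differed. Limbal and basal genes had 1 higher and 2 lower of 23, epithelial transcription factors 1 and 2 of 24, and corneal differentiation genes 2 and 2 of 17 with a median of -0.10. Conjunctival and goblet genes had 4 higher (Agr2, Aqp5, Ltf and Wfdc2) and 0 lower of 12, with a median of 0.85 that came to 0.13 with members thinned to 2000 UMIs. Chemokines and cytokines had 7 higher and 0 lower of 21, 4 of which lost their call without mixed barcodes.

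In the cell cycle list 21 of 27 genes were called higher and 0 lower, with a median of 2.09. Mki67, the proliferation marker, had 0 UMIs in aged control and 781 in aged CNV (77.8 CPM), at least 18.4-fold higher. Top2a, the topoisomerase of dividing cells, had 1 UMI against 93.2 CPM, a ratio of 66.3 (11.9 to 2620). Stmn1, a microtubule regulator, was at 16.9 and 168 CPM, 9.98-fold higher (5.70 to 19.3). In other cells Mki67 was at 5.48 and 26.7 CPM, and the list's genes had a median of 1.45 there. With every member thinned to 2000 UMIs the median of the list was -0.29, and Mki67 was at a log2 ratio of 0.61 in place of 4.20. Both Mki67 ratios are set by the limit of 3 counts in aged control. That limit is a higher CPM after thinning, which leaves 29 aged control members of 2000 UMIs. For genes at 0 there, the thinned ratios are thus no comparison at equal depth. Thinned medians and counts of other genes in this contrast carry the same limit.

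Interferon and antigen presentation genes were called higher in 17 and lower in 0 of 31, with a median of 1.71 (1.60 without mixed barcodes, 0.30 with members thinned to 2000 UMIs), and 1.25 for the genes in other cells. Isg15, a ubiquitin-like protein induced by interferon, was at 11.3 and 77.8 CPM, 6.91-fold higher (3.49 to 16.1), and Ifit3 at 7.04 and 77.8 CPM. H2-K1, a class I antigen gene, was at 198 and 533 CPM. Both aged levels of Isg15 and H2-K1 lay below both young levels, which were 263 and 253 CPM for Isg15 and 951 and 760 CPM for H2-K1.

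Single genes of the conjunctival, corneal, wound and complement lists were higher in aged CNV. Wfdc2, a secreted protease inhibitor of mucosal epithelia, was at 803 and 2514 CPM, 3.13-fold higher (2.88 to 3.41), and aged CNV stood above the other 3 libraries. Lcn2, an iron-sequestering protein, was at 38.0 and 141 CPM, and other cells of aged CNV had 141 CPM as well. Ltf (lactoferrin) had 0 UMIs in aged control and 112 CPM in aged CNV, at least 26.6-fold higher. Clu (clusterin), an extracellular chaperone, was at 70.4 and 729 CPM, 10.4-fold higher (7.85 to 14.0), against 143 and 124 CPM in the young libraries. In other cells Clu was higher in aged control than in aged CNV (1109 and 680 CPM). The complement and antimicrobial list had 6 of 17 genes called higher and 0 lower, with a median of 1.18 (0.74 without mixed barcodes, where C1s1 and Lyz2 lost their calls). Lyz2 is itself in the leukocyte list that helps define those barcodes. Sprr1a, a cornified envelope protein induced by injury, had 0 UMIs in aged control and 61.6 CPM in aged CNV, at least 14.6-fold higher, and 62.5 and 32.0 CPM in the young libraries.

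Among genes lower in aged CNV, Trp63 was at 594 and 274 CPM, 2.17-fold lower (1.95 to 2.40), Ptprz1 at 252 and 95.2 CPM, 2.65-fold lower (2.24 to 3.11), and Grhl3, a transcription factor of the epithelial barrier, at 63.3 and 20.1 CPM. Aged control was the highest of the 4 libraries for each of the 3. Upk1b, a uroplakin of the corneal and conjunctival surface, was at 224 and 98.2 CPM. The count of called genes was 526 higher and 253 lower without mixed barcodes, and 78 higher and 130 lower with members thinned to 2000 UMIs.

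Age was addressed first in mice without lesions, where aged control was set against young control. Of 12579 genes, 1522 were called higher in aged control (12.1%) and 933 lower (7.42%), with a median log2 ratio of 0.17. In other cells 143 of the 1522 and 243 of the 933 also lay at least 2-fold the same way. The split of calls in members depended on scaling. Scaled by TMM factors the median shifted by -0.27 and the counts were 838 higher and 1513 lower, and by median-of-ratios factors -0.25, with 882 higher and 1442 lower. The called genes also differed in length. Genes called higher spanned a median of 59.3 kb in the genome and genes called lower 12.8 kb, against 25.1 kb for all genes tested, and in other cells the same contrast gave 26.8, 10.2 and 20.9 kb. Malat1, a nuclear RNA, was at 8999 CPM in members of young control and 17101 CPM in those of aged control. The part of gene length or nuclear RNA in the differences between ages was not tested.

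The cell cycle list was lower throughout, with 27 of 27 genes called lower in aged control and a median of -2.91, beside -0.90 for the genes in other cells. The 27 include the cell cycle inhibitors Cdkn1a and Cdkn2b. Mki67 was at 101 CPM in young control with 0 UMIs in aged control, and Stmn1 at 364 and 16.9 CPM, 21.5-fold lower (12.3 to 41.7). Interferon and antigen presentation genes were called lower in 26 of 28 and higher in 0, with a median of -2.02 beside -0.74 in other cells. B2m, the light chain of class I antigen complexes, was at 1133 and 107 CPM, 10.6-fold lower (8.46 to 13.5), and was lower in other cells too (643 and 314 CPM). Ifi27l2a was at 631 and 4.22 CPM, a ratio of 150 (51.2 to 725) from 3 UMIs in aged control. Immediate early genes, which respond within minutes to stimulation and dissociation, were called lower in 10 of 24 and higher in 0, with a median of -0.97 beside -1.22 in other cells. Fos was at 1673 and 825 CPM, and it was among 3 of the 10 that lost their call without mixed barcodes, at 1577 and 833 CPM.

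Corneal differentiation genes were called lower in 8 of 21 and higher in 1, with a median of -0.61. The 8 include Krt12, a gene of the rule that chose the members. Krt12 was at least 655-fold, Lypd2 at least 174-fold and Slurp1 at least 49.0-fold lower in aged control, with 0 set to 3 counts. Their exact intervals began at 532, 141 and 39.8. Aqp5 was at 665 and 11.3 CPM, 59.1-fold lower (30.0 to 137). The surface antigen Psca had 1376 UMIs in young control and 1 in aged control, and was found in 6.75% and 3.45% of members. When members with 5 or more Krt12 UMIs were left out the list's median was -0.45, and Lypd2 and Slurp1 turned to log2 ratios of 0.96 and 2.81, values set by the limit of 3 counts in aged control. Conjunctival and goblet genes were called lower in 5 of 11 and higher in 1, with a median of -1.34. Of the wound and barrier alarm genes 13 of 23 were called lower and 0 higher, with a median of -1.29, and they included Krt6a, Krt17, S100a8, S100a9 and Il1a. S100a9, a subunit of the antimicrobial complex calprotectin, was at 65.4 and 7.04 CPM.

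The 10 genes ranked first among those higher in aged control were Itprid1, Chrm3, Slc25a21, Fut9, Pdzrn4, Fmo2, Hnf4g, Hpgd, Dach2 and Aox3. Itprid1 had 0 UMIs in young control and 33.8 CPM in aged control, at least 124-fold higher, and was found in 13.8% of aged control members. Chrm3, the M3 muscarinic acetylcholine receptor, was at 13.1 and 353 CPM, 27.1-fold higher (22.0 to 33.4), and was found in 14.3% and 75.9% of members. It was also higher in other cells of aged control (45.2 and 111 CPM). Fut9, a fucosyltransferase, was at 27.2 and 312 CPM, 11.5-fold higher (9.61 to 13.7), with at most 4.05 CPM in other cells of any library. Fmo2, a flavin monooxygenase, was at 39.4 and 398 CPM and present in all 29 aged control members. Hpgd, which inactivates prostaglandins, was at 11.9 and 125 CPM, and Aox3, an aldehyde oxidase, at 17.2 and 166 CPM. For Chrm3, Fut9, Fmo2, Hpgd and Aox3 both aged libraries lay above both young libraries. Trp63 was 3.37-fold higher (3.02 to 3.74) and Egfr, the EGF receptor, 2.13-fold higher (1.92 to 2.36) at 277 and 591 CPM. Hemidesmosome and basement membrane genes were called higher in 4 of 16 and lower in 1, with a median of 0.63, among them Lama5, a laminin chain (16.8 and 43.6 CPM), and Col7a1, the anchoring fibril collagen (11.4 and 23.9 CPM).

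After laser injury the ages were compared between aged CNV and young CNV, 414 members against 261. Of 14507 genes, 2810 were called higher in aged CNV (19.4%) and 574 lower (3.96%), with a median log2 ratio of 0.34. In other cells 1300 of the 2810 and 219 of the 574 also lay at least 2-fold the same way. TMM scaling shifted the median by -0.31 and gave 1889 higher and 1091 lower, and median-of-ratios scaling -0.32 with 1865 and 1130. With members thinned to 2000 UMIs 954 were higher and 354 lower. Genes called higher spanned a median of 49.5 kb and genes called lower 8.715 kb, against 24.7 kb for all genes tested, and in other cells the values were 23.9, 9.48 and 20.5 kb. This comparison shares no library with that of the controls.

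Cornea-related genes were again lower. In the corneal differentiation list 7 of 21 genes were called lower and 2 higher, with a median of -0.78 (-0.08 without the members holding 5 or more Krt12 UMIs). The 7 include Krt12 and Aldh3a1, genes of the rule that chose the members. Krt12 was at least 12766-fold lower in aged CNV, and Dsg1a at least 114-fold lower. Aqp5 was at 829 and 30.2 CPM, 27.5-fold lower (24.5 to 30.9), and Aldh3a1, the corneal aldehyde dehydrogenase, at 2003 and 736 CPM. Psca was at 111 and 1.59 CPM, 69.8-fold lower (42.8 to 123), and Fam83a at 71.9 and 1.20 CPM, 60.2-fold lower (34.2 to 117). Without members holding 5 or more Krt12 UMIs the log2 ratio of Fam83a was -1.12 in place of -5.91 and that of Aqp5 -2.68 in place of -4.78. Tkt, a transketolase that is abundant in the cornea, was at 1116 and 461 CPM, 2.42-fold lower (2.34 to 2.51). Limbal and basal genes were nearly level, with 0 called higher and 1 lower of 23 and a median of 0.16. That list holds Krt5, Krt14 and Krt15, which are genes of the rule as well.

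Complement and antimicrobial genes were called higher in 11 of 17 and lower in 1, with a median of 1.34 that came to 0.38 without mixed barcodes, where 6 of the 12 calls were lost. Wfdc2 was at 650 and 2514 CPM, 3.87-fold higher (3.76 to 3.98), and at 665 and 2779 CPM without mixed barcodes. Cp (ceruloplasmin) was at 48.1 and 160 CPM. C3, the central complement component, was at 10.0 and 31.4 CPM, a call that was lost without mixed barcodes at 10.3 and 16.0 CPM, and other cells had 212 and 271 CPM. Interferon and antigen presentation genes were called higher in 1 of 31 and lower in 6, with a median of -0.45. B2m was at 828 and 210 CPM, 3.94-fold lower (3.75 to 4.13). Of the cell cycle genes 10 of 27 were called lower, the inhibitor Cdkn1a among them, and 0 higher, with a median of -0.83. Mki67 was at 111 and 77.8 CPM. Wound and barrier alarm genes were divided, with 4 called higher and 9 lower of 24. Il33 was at 15.9 and 74.7 CPM, 4.70-fold higher (3.95 to 5.62), and Krt16 at 70.4 and 3.69 CPM, 19.1-fold lower (13.7 to 27.4).

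Some genes higher with age in the controls were also called higher in aged CNV and others were not. The hemidesmosome and basement membrane list had 0 of 16 and the EGF receptor list 0 of 12 genes called in either direction here. Chrm3 was at 12.6 and 226 CPM, 17.9-fold higher (14.9 to 21.6), and Pdzrn4 at 4.90 and 82.2 CPM. Kcnj16, an inwardly rectifying potassium channel, led the ranking at 2.96 and 80.2 CPM, 27.1-fold higher (18.7 to 40.7), with 5.75% and 53.9% of members holding a UMI and at most 0.644 CPM in other cells. Meis1, a homeobox factor, was at 149 and 428 CPM, 2.87-fold higher (2.71 to 3.05), and at 128 and 356 CPM in the controls. Gzmb, a protease of cytotoxic lymphocytes, was named by the rule with 0 UMIs in young CNV and 6.28 CPM in aged CNV, and its UMIs lay in 0.242% of the aged CNV members, which is 1 cell.

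**Figure D4:**
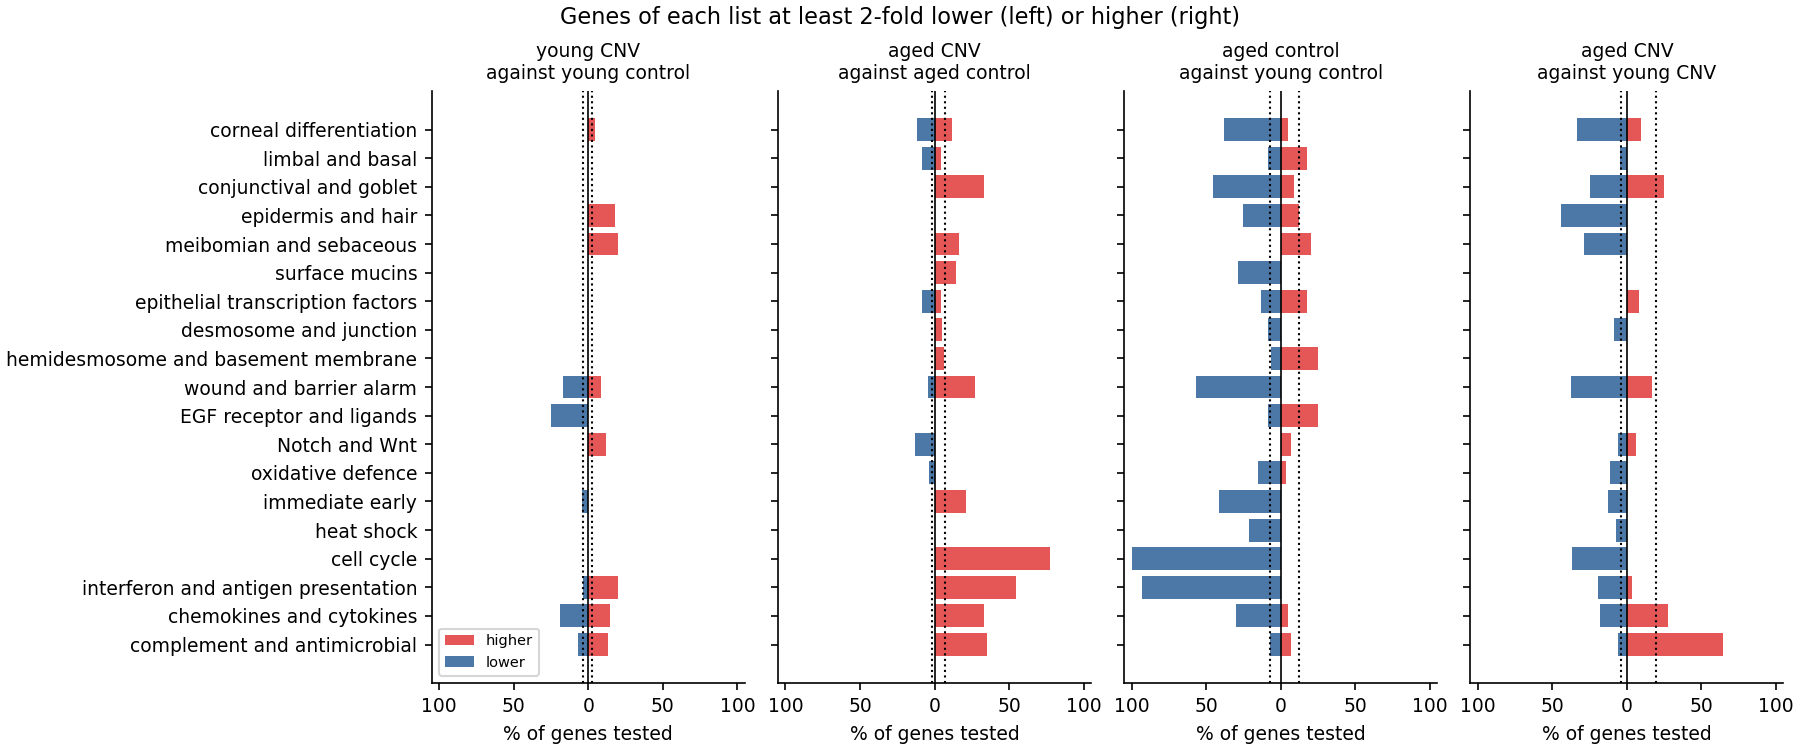
Percentage of the tested genes of each list that were called at least 2-fold higher (red, right) or lower (blue, left) in the first library of each contrast. Dotted lines mark the percentage of all tested genes called in that direction. The cell cycle and interferon bars point right in aged CNV against aged control (21 of 27 and 17 of 31 genes) and left in aged control against young control (27 of 27 and 26 of 28 genes).

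Cells with cell cycle genes were counted as those with at least 3 of 6 such genes detected. There were 71 of 252 (28.2%, interval 22.7% to 34.2%) in young control, 66 of 261 (25.3%, 20.1% to 31.0%) in young CNV, 0 of 29 in aged control, which allows a share of up to 10.3%, and 48 of 414 (11.6%, 8.67% to 15.1%) in aged CNV. Thinned to 2000 UMIs per member, which left out 1, 1, 0 and 1 members, the shares were 18.7%, 15.4%, 0% and 7.51%. The setting for thinned counts was 2 cell cycle genes in place of 3. The thinned shares can therefore be compared with each other but not with the shares before thinning. Both young intervals lay above that of aged CNV. Mixed barcodes did not change the order, with 29.5%, 27.2%, 0% and 11.6% without them. Among Krt14-led members the shares were 38.0%, 30.6%, 0% and 9.45%, and among Krt15-led members 27.1%, 24.1%, 0% and 12.7%. Young members with 5 or more Krt12 UMIs had 28.1% and 28.3%. Rods, which do not divide, reached at most 0.427% in any library, and fibroblasts 0.575%, 3.67%, 0% and 1.54%. The aged control library was at 0 in fibroblasts too, 0 of 1129 cells.

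**Figure D5:**
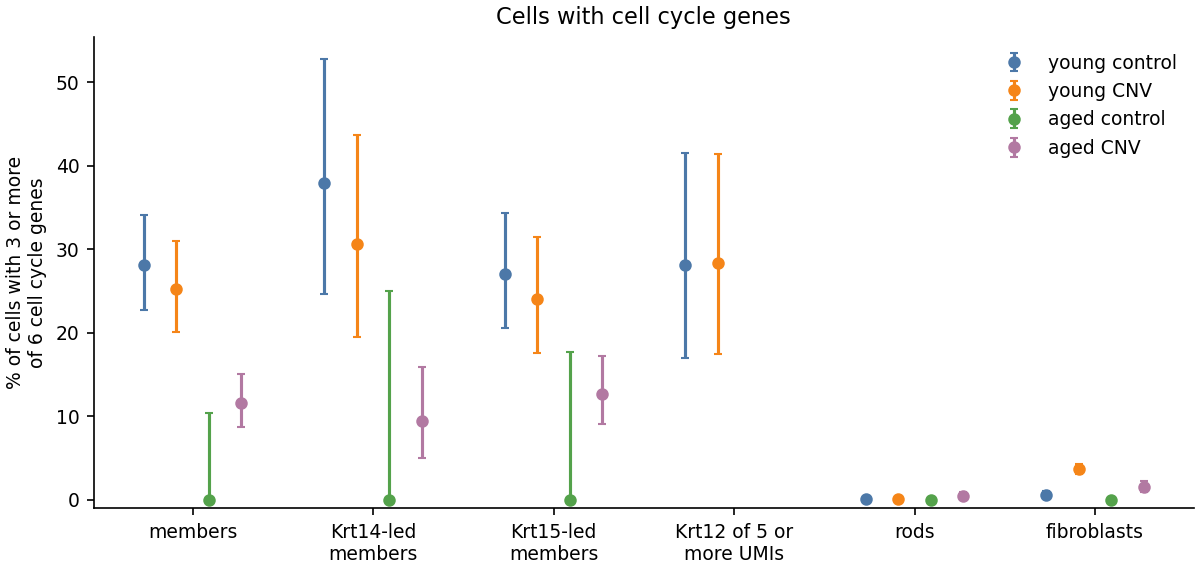
Percentage of cells with at least 3 of 6 cell cycle genes, for all members, Krt14-led members, Krt15-led members, members with 5 or more Krt12 UMIs, rods and fibroblasts, with exact 95% intervals and, for shares of 0, the limit that a count of 0 allows. Young members lie at 28.2% and 25.3%, aged CNV members at 11.6%, and rods and fibroblasts at or under 3.67%.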

How the data were processed

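Droplet single-cell RNA libraries of mouse retina and choroid were used, 1 per group. The authors deposited a table of UMI counts, whole numbers per gene and cell, made with Cell Ranger and Seurat 4.1.1 on mm10, per the submitters' processing notes. For the Cell Ranger version and the gene annotation, nothing is stated (not given in the sources used here). Column prefixes gave the library, the prefix letter e being read as aged, the only other age in the labels, and 0 columns fell outside the 4 samples.

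Member counts were summed per library and divided by the sum (CPM). Genes with 20 or more UMIs over both libraries were compared by ratio, with an exact conditional binomial interval. CPM intervals are exact Poisson and shares Clopper-Pearson. A count of 0 was set to 3 counts in ratios and list medians, also after thinning, where 3 counts are a higher CPM. Folds made so are written as at least that fold, and the exact interval of such a fold begins lower. With 1 library per group there was no test. The members and lists were chosen with earlier results of these data known. In each contrast and direction the rule named 10 genes, ranked by that bound of the log2 ratio's interval which lies nearest 0, at a level at least that of other cells in the higher library. Mitochondrial, ribosomal, haemoglobin, immunoglobulin, sex-linked and unnamed genes were left out. List genes could be named as well. Genes that set members apart were the 20 with the largest ratio to other cells, at least 100 UMIs and 4-fold in each library. Doublets were scored with Scrublet in scanpy 1.11.5 and kept, with removal above a score of 0.2 as an alternative. Ratios were tested on simulated data. Python 3.11.15, scipy 1.17.1, pandas 2.3.3, R 4.3.3, edgeR 4.0.16 (TMM factors only) and DESeq2 1.42.0 (size factors only) were used.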

Additional observations from a re-analysis of the deposited data

Results flagged for a closer look

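Among the genes named by the rule or held in a list, 7 were called lower in young CNV than in young control and higher in aged CNV than in aged control. A call needed a ratio of at least 2-fold and a counting interval that excluded 1. Of all genes tested, 3.56% were called lower in the young contrast and 6.75% higher in the aged one. No share of all tested genes called in both ways is given. The difference between the ages was not tested, since each group had 1 library. The log2 ratios in young and then aged members were -1.05 and 3.26 for Alox15, a lipoxygenase, -1.37 and 4.99 for Ifi27l2a, an interferon-induced gene, and -1.06 and 5.05 for Wfdc18. They were -1.83 and 1.004 for the chemokine Cxcl5, -1.64 and 2.99 for Esp6 and -1.03 and 3.83 for Tnc, a matrix glycoprotein. For Serpinf1, a secreted serpin, they were -1.37 and 3.61. Without mixed barcodes Serpinf1 stood at 0.95 and 0.59, so its directions no longer differed, and neither Tnc in young members nor Cxcl5 in aged members passed the 2-fold mark with its interval. All 7 aged ratios rest on 29 aged control members. In those members Esp6 had 0 UMIs, so its ratio is set by the limit of 3 counts. Alox15 and Wfdc18 had 1 UMI each there and Ifi27l2a 3.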

How the results depend on the processing

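No paired analysis was possible because each group had 1 library. Among the share ratios, young CNV over young control was 1.29 at a keratin sum of 5 or more and 1.23 without mixed barcodes, both with intervals above 1, but 0.557 without rods in the denominator and 0.0597 without members holding 3 or more UMIs of 11 genes of other cell types, a setting that leaves 5 young CNV members. Aged over young control was 0.101 and 0.506 in those settings, and aged over young CNV 1.87 and 86.9, with 1.89 at a keratin sum of 5 or more and 2.90 without members holding 5 or more Krt12 UMIs. Called genes in young CNV against young control numbered 492 at a minimum of 50 UMIs, 217 with members thinned to 2000 UMIs, 516 in Krt12-led and 496 in Krt14-led members, against 828. Thinning gave 208 against 1148 in aged CNV over aged control, 545 against 2455 in aged over young control, and 1308 against 3384 in aged over young CNV.

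Directions turned as follows, in log2 ratios. In young CNV over young control Dmkn was -0.54 when thinned and -0.15 in Krt15-led members, Fras1 -0.48 without members holding 5 or more Krt12 UMIs, and Areg and Krt16 1.12 and 0.38 in Krt12-led members. In Krt14-led members Areg was 0.26, Esp6 0.32, Fras1 -0.14, Krt16 1.71 and Tnip3 0.18. Thinned aged CNV over aged control gave -0.37 for Birc5 and Ube2c, -0.29 for Cenpf and the cell cycle list and -1.02 for Pclaf. Lypd2 and Slurp1 were 0.96 and 2.81 in aged over young control without members holding 5 or more Krt12 UMIs, and Gabrp and Ttc21a -0.25 in thinned aged over young CNV. Birc5, Ube2c, Cenpf and Pclaf had 0 UMIs in aged control, as did Lypd2 and Slurp1, and Gabrp and Ttc21a had 0 in young CNV. Their turned values are set by the limit of 3 counts and show no turn in the counts themselves. For the other turns the cause was not tested. Of the remaining gene values 715 moved by no more than the set margin and 167 by more. The settings on mixed barcodes, Krt12 UMIs, and Krt14-led or Krt15-led members alone were chosen after seeing the data. The other-type setting could not be run for gene counts with young CNV, nor Krt12-led members for aged libraries, nor Krt14-led and Krt15-led members for aged control (12 and 17 members).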
